A study of Mus musculus with 8 samples.

Results

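The chemokine ligands of a murine spleen stromal cell line were examined by RNA-seq. They were taken as every row of the deposited table whose symbol begins with Ccl, Cxcl or Cx3cl and continues only with digits. This rule found 9 genes among 12589 rows, namely the CXC ligands Cxcl1, Cxcl10, Cxcl12 and Cxcl16, the CC ligands Ccl2, Ccl7, Ccl9 and Ccl25, and the CX3C ligand Cx3cl1. The cells were the line mSSC-YFP, spleen stromal cells of mouse that carry a yellow fluorescent protein and were grown in medium with fetal bovine serum. The sample labels list 4 samples treated with BMS493, an inhibitor of retinoic acid (RA) signaling, and 4 treated with its vehicle DMSO, each for 48 h. All 8 samples come from the same line, so they are not separate animals, and the labels do not say whether they were separate cultures.

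Chemokines are small secreted proteins that bind heparan sulfate on cell surfaces and matrix and attract leukocytes through G protein-coupled receptors. Their families are named after the spacing of the first cysteines, which are adjacent in CC ligands and separated in CXC and CX3C ligands. In lymphoid organs, stromal cells supply the constitutive chemokines that place lymphocytes and keep them in niches, while inflammatory chemokines are induced in many cell types by cytokines acting through NF-κB or interferon signaling.

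The value used for each ligand was the authors' mean level, the mean over all samples of the log2 normalized expression, in which 1 unit is a doubling. The sum of 2 raised to this value over all rows was 989369, near the total of values given as CPM (normalized reads scaled to a fixed library total), so a level is read here as log2 CPM. The mean covers DMSO and BMS493 samples together, so it gives no level in either group, no spread between samples and no depth of a library, and no difference between ligands could be set against a replicate error. The change with BMS493 is held in columns of the authors' own comparison, which were not used here, and it is not reported. Levels below are descriptions without a test.

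Cxcl12 stood far above the other ligands, and 5 of the 9 lay near the lower end of the table. The authors' mean level of Cxcl12 was 11.11, equal to 2209 CPM, and 22 of the 12589 rows were higher. Ccl2 followed at 4.60, Cxcl1 at 4.01 and Ccl7 at 3.44. Cxcl16 at 1.91, Ccl25 at 1.85, Ccl9 at 1.74, Cx3cl1 at 1.58 and Cxcl10 at 1.22 made up the low group. Across all rows the first quartile was 3.33 and the median 4.99. Thus 1 ligand lay above the median of all genes, 3 lay between the first quartile and the median, and 5 lay below the first quartile. None of the 9 was under a level of 1, or 2 CPM, the limit set for calling a gene low. Over all rows the share under it was 6.80%, so a count of 0 among 9 genes does not set the ligands apart. Ccl27a, a ligand outside the symbol rule, was under the limit at 0.11. The table itself ends at -0.58.

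**Figure D1:**
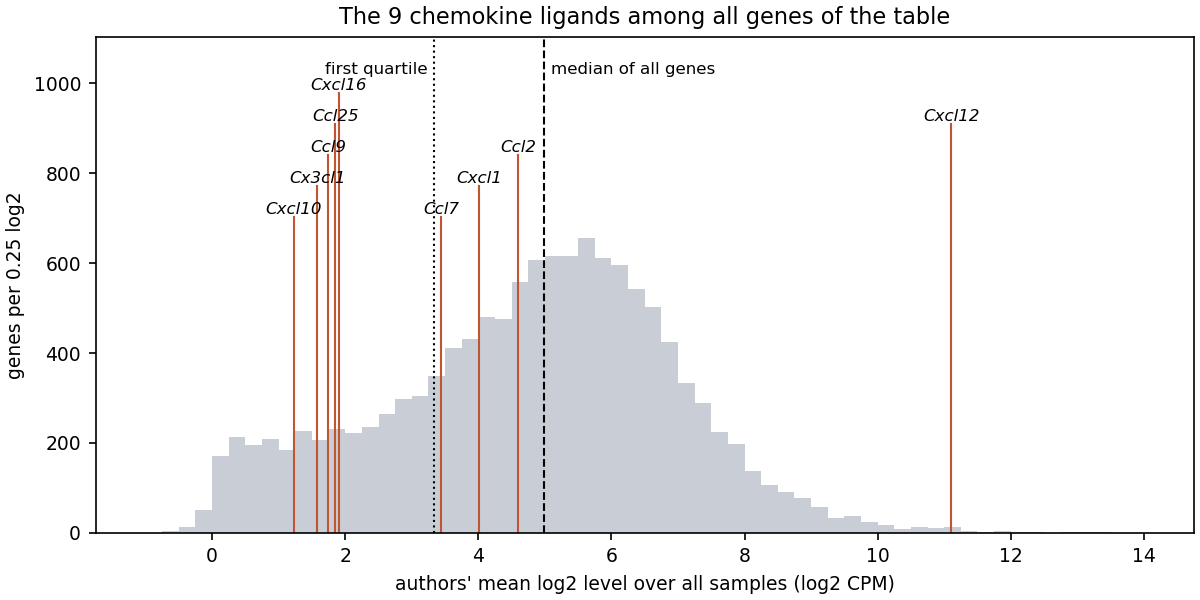
Histogram of the authors' mean log2 level over all samples for the 12589 rows of the table (grey bars, genes per bin), with a vertical orange line for each of the 9 chemokine ligands and the first quartile and median of all genes as dotted and dashed lines. Cxcl12 sits in the upper tail at 11.11, and 5 ligands sit between 1.22 and 1.91, left of the first quartile.

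Counts of reads grow with transcript length, so the ligands were next compared after division by the length of the longest annotated transcript, in log2 levels per kb. Cxcl12 remained first with 8.62 per kb from a transcript of 5627 bases, 17.8 times the level per kb of Ccl2. Ccl2 had 4.47 per kb, Ccl7 3.76 and Cxcl1 3.11. The next step was the second largest, since Ccl25 with 0.50 per kb lay 6.10 times below Cxcl1. Below Ccl25 came Cxcl16 at 0.47, Ccl9 at 0.16, Cxcl10 at 0.07 and Cx3cl1 at -0.15 per kb. These 5 spanned 0.65 on the log2 scale with the longest transcript, 1.36 with merged exons and 2.51 with the median coding transcript. The step between the 4 higher and the 5 lower ligands was 2.61 on the log2 scale with the longest transcript, 2.80 with merged exons and 1.09 with the median coding transcript. The same 4 ligands were the highest with 3 definitions of length and without division by length. With the median coding transcript, however, the step below them did not stand out. On that scale Ccl25 at 2.09 and Cxcl10 at 0.93 lay further apart than Ccl7 at 3.76 and Cx3cl1 at 2.67. The order among the 4 higher and among the 5 lower ligands was not the same, except that Cxcl12 and Ccl2 were first and second on all 4 scales.

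**Figure D2:**
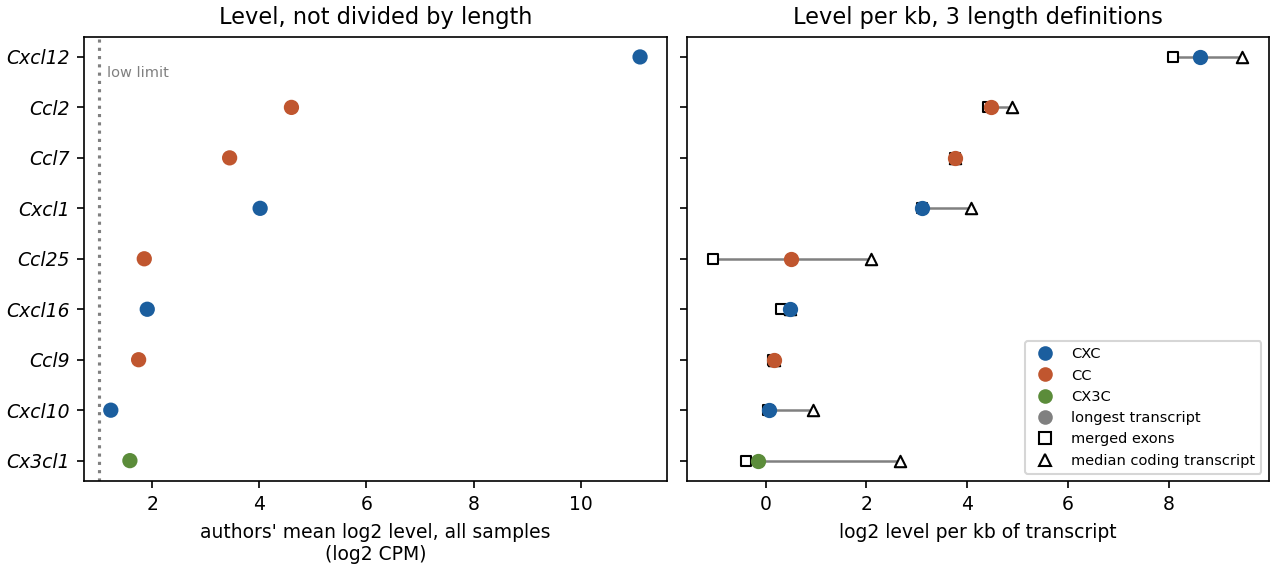
The 9 chemokine ligands in order of level per kb. Left, the authors' mean log2 level with the limit of 1 for a low gene as a dotted line. Right, log2 level per kb of the longest transcript (filled circles, coloured by family), of all exons merged (squares) and of the median protein coding transcript (triangles), joined by a line. Cxcl12 lies apart from the others on both scales, and Ccl25 and Cx3cl1 have the widest ranges between length definitions.

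Cxcl12 (ENSMUSG00000061353.11) encodes the ligand of the receptor CXCR4, known for retaining hematopoietic and B-lineage cells in bone marrow and lymphoid niches. The gene lies on chromosome 6 from 117168535 to 117181367, plus strand, in GRCm38. Without division by length, the 9 ligands held 0.230% of the summed CPM of the table, and Cxcl12 held 97.0% of that part. Its level per kb was at percentile 99.3 of 11480 protein coding genes, with 83 genes higher. Set beside genes that mark activated or matrix-producing stroma, Cxcl12 per kb of the longest transcript was 6.13 times Vcam1, an adhesion molecule for lymphocytes, and from 6.13 to 9.16 times over the 3 length definitions. It was 2.33 times Col3a1, a fibrillar collagen gene, and 2.83 times with merged exons, but 0.555 times with the median coding transcript, so the order of these genes was not settled. Acta2, the smooth muscle actin gene of myofibroblasts, was 3.70 times Cxcl12 per kb, with a range from 2.93 to 4.98. Col1a1 was 4.29 times Cxcl12, with a range from 2.39 to 5.63.

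Ccl2 and Ccl7 encode monocyte chemoattractants that act on the receptor CCR2, and they are neighbours in the genome. Ccl2 (ENSMUSG00000035385.5) lies on chromosome 11 from 82035571 to 82037453 of GRCm38 and Ccl7 (ENSMUSG00000035373.2) from 82045712 to 82047525, both on the plus strand with 8258 bases between them. Their levels were 24.2 and 10.9 CPM, and per kb of the longest transcript Ccl2 was 1.63 times Ccl7. Ccl2 was at percentile 42.7 of all rows by level and at percentile 73.3 of protein coding genes per kb, which is another set of genes as well as another scale. Its longest transcript has 1096 bases. For Ccl7, with 801 bases, the corresponding percentiles were 26.2 and 59.2. The 4 other CC ligand genes of the same cluster, Ccl11, Ccl12, Ccl8 and Ccl1, had no row in the table.

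Ccl9, which encodes a ligand of CCR1, lies on the same chromosome from 83572919 to 83578636, minus strand, in a second group of CC ligand genes. Its authors' mean level of 1.74, or 3.35 CPM, was at percentile 11.7 of all rows. Ccl5, Ccl6, Ccl3 and Ccl4, the other ligand genes of that group, had no row. Ccl25, the ligand of CCR9 and best known from thymus and small intestine, is on chromosome 8 from 4325210 to 4360020 with a level of 3.61 CPM. Its length, with that of Cx3cl1, depends most on the definition among the 9. All its exons merged cover 7445 bases, whereas its median coding transcript has 845, so its level per kb ran from -1.05 to 2.09 depending on the definition. An exon of Ccl25 also overlaps 204 bases of Elavl1 on the opposite strand, a gene with an authors' mean level of 6.62. The libraries were made with a stranded kit, but the setting used in counting is not given in the sources used here, and a part of Elavl1 reads in the Ccl25 value was not tested.

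Cxcl1, a ligand of the neutrophil receptor CXCR2, had a level of 16.2 CPM. The gene lies on chromosome 5 from 90891241 to 90893115, plus strand. Per kb, Ccl2 was 2.56 times Cxcl1 with the longest transcript and 1.76 times with the median coding transcript. Cxcl10, an interferon-inducible ligand of CXCR3, lies on the same chromosome from 92346638 to 92348889, minus strand. Without division by length it had the lowest authors' mean level of the 9, 1.22 or 2.34 CPM, at percentile 8.13 of all rows. Of its merged exon bases, 5.91% overlap Art3 on the opposite strand, which had no row. Neither gene's nearest family members were listed under their current symbols. Cxcl5, Cxcl3 and Cxcl2 had no row beside Cxcl1, nor did Cxcl9 and Cxcl11 beside Cxcl10.

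**Figure D3:**
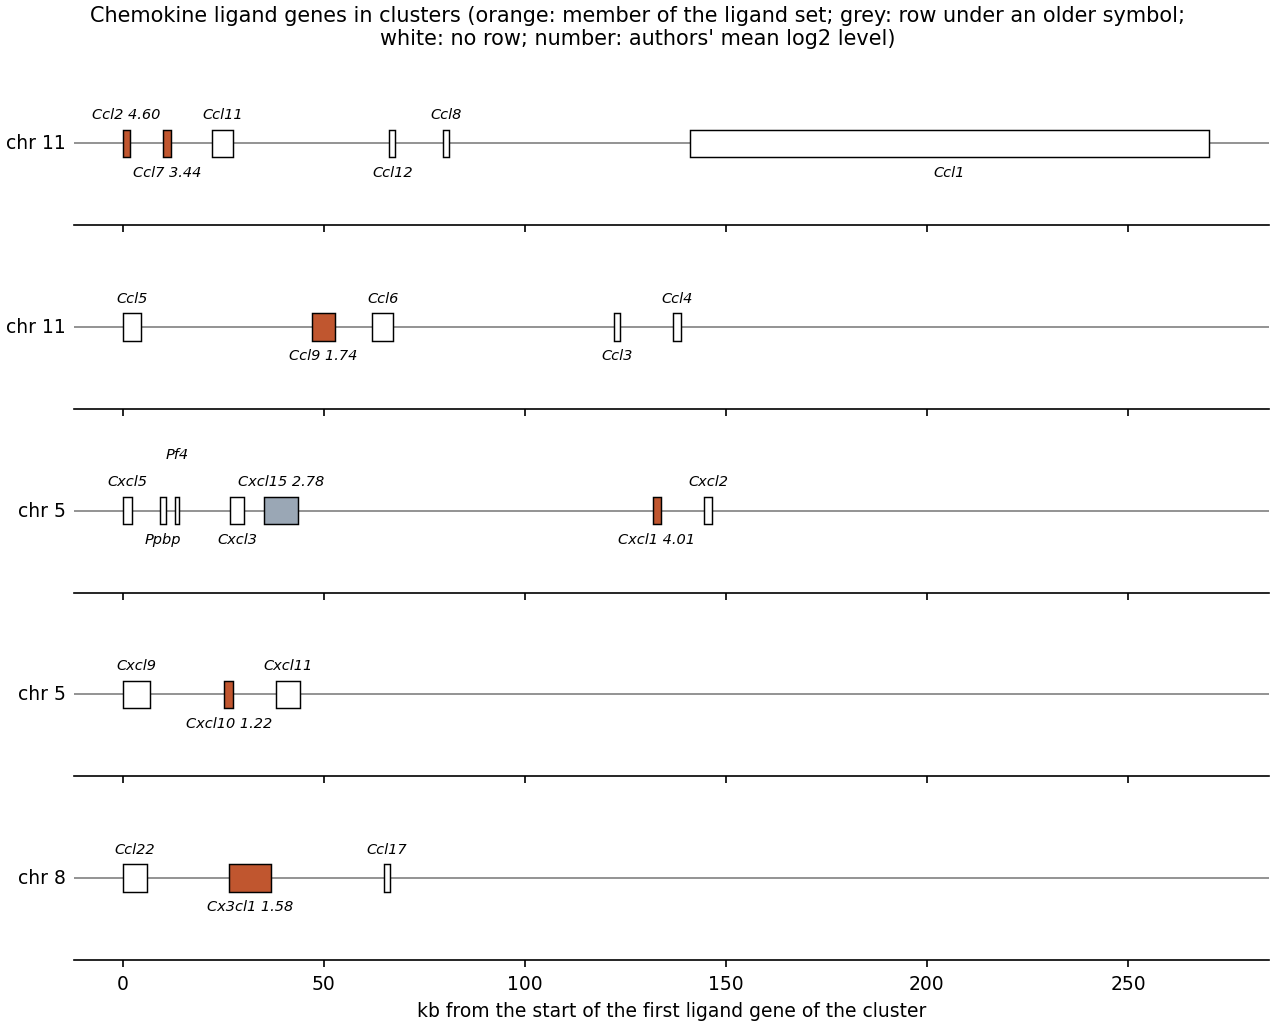
Positions of chemokine ligand genes in the 5 genomic clusters that hold a member, in kb from the start of the first ligand gene of each cluster. Boxes span each gene in GENCODE M21, orange boxes are members with their authors' mean log2 level, the grey box is Cxcl15 (a row under an older symbol) and white boxes had no row. Ccl2 and Ccl7 are adjacent members of a cluster of 6, and the other 4 clusters hold 1 member each.

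Cxcl16 and Cx3cl1 are the transmembrane members of the set, and their ectodomains are released by the proteases ADAM10 and ADAM17. Cxcl16, which binds CXCR6, is on chromosome 11 from 70453983 to 70459984, minus strand, with 3.75 CPM. Of its merged exon bases, 18.3% overlap Zmynd15 on the opposite strand, which had no row. Cx3cl1, the ligand of CX3CR1, is on chromosome 8 from 94772009 to 94782427, plus strand, with 2.99 CPM. Its longest transcript has 3315 bases and its median coding transcript 470, and its log2 level per kb ran from -0.39 with merged exons to 2.67 with the median coding transcript, then the highest of the 5 lower ligands. Transcripts of both proteases were higher per kb than those of both ligands with each of the 3 length definitions. Adam10 had 5.69 per kb on the log2 scale with the longest transcript. Its ratio to Cxcl16 ranged from 37.2 to 65.6 over the definitions, and its ratio to Cx3cl1 from 14.3 to 63.5. Adam17 had 3.75 per kb, with ratios from 6.78 to 9.75 to Cxcl16 and from 2.13 to 14.9 to Cx3cl1.

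In all, 6 of the 9 members fell in 5 genomic clusters, which together contain 24 chemokine ligand genes, and 17 of these genes had no row. Shared reads between such related genes were checked on the transcripts. No window of 100 bases in the longest transcript of any of the 9 occurred in a transcript of another gene, and with 50 bases this held for all except Ccl9, where 2.00% of windows did. The authors counted uniquely mapped reads, and at these lengths the members differ from their paralogs.

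The sequence just before the transcription start is shown for Cxcl12, the ligand with the highest level, and for Cxcl1 and Cxcl10, inducible ligands of the higher and lower group. Each line gives 200 bases of RefSeq sequence on GRCm38.p6, 5′ to 3′ on the gene's strand and ending at the base before the start. Capitals mark matches to GGGCGG, the core of GC boxes bound by Sp1, or to the degenerate NF-κB consensus, on either strand.
Cxcl12, chr6:117168335-117168534, plus strand: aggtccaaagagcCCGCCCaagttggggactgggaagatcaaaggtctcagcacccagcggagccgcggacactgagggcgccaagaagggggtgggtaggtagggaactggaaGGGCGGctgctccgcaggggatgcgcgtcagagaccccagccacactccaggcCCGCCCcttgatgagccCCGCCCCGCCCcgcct
Cxcl1, chr5:90891045-90891244, plus strand: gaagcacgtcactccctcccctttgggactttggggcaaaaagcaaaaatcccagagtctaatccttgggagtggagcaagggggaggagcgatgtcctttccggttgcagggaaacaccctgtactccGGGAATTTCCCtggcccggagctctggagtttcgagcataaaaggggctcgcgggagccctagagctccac
Cxcl10, chr5:92348890-92349089, minus strand: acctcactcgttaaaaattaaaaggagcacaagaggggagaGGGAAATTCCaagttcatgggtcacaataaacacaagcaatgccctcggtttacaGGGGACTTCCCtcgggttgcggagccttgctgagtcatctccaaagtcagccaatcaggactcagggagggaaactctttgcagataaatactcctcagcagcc

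In the 250 bases before the start, Cxcl12 held 5 matches to GGGCGG and none to the NF-κB consensus. Cxcl1 held 2 matches to that consensus, which overlap on opposite strands in a single run. Cxcl10 held 4, of which 3 overlap in the run nearer to the start. Neither had a match to GGGCGG. Of the other members with a promoter, Ccl9 held 1 match to the NF-κB consensus and none to GGGCGG. Cx3cl1 held 1 match to GGGCGG and none to the NF-κB consensus, and the 2 promoters of Ccl25 held neither. Over all 32851 RefSeq promoters searched in the same way, 32.7% held GGGCGG and 7.25% held the NF-κB consensus. The letters AGGTCA are a form of the half-site recognised by RA receptors, and other spellings of it were not searched. AGGTCA occurred in 14.0% of all promoters. It was in none of the windows of Cxcl12, Cxcl1 and Cxcl10, and in 1 of the 7 promoters searched for members. That promoter is the second of 2 listed for Ccl25, with the match on the plus strand at position -42 from the start. GC content of the 250 bases was 64.4% for Cxcl12, 59.2% for Cxcl1 and 48.0% for Cxcl10, with a median of 52.4% over all promoters. RefSeq promoters were found for 6 of the 9 members, 7 promoters in all. A match describes letters in this window only and carries no information on binding.

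A hand-written list of 33 mouse ligand genes with symbols of this pattern was searched to see which ligands were not listed. In total 23 had no row, among them Cxcl13, the B-cell chemokine of follicles, Ccl19, a ligand of CCR7 in T zones, and Cxcl9 and Cxcl11. The 9 members were found, and Cxcl15 was matched through its older symbol Il8 in RefSeq, at a level of 2.78 or 6.87 CPM. Of 8 further ligand genes with other symbols, among them Ccl21a, Xcl1 and Pf4, only Ccl27a had a row, at 0.11. Since the lowest row of the table is at -0.58, a gene with no row may lie below the authors' filter, and a level for it cannot be given. The share of all annotated genes without a row was not counted. The counts of missing ligands, here and by cluster, and of receptors below cannot therefore be called particular to chemokine genes.

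The receptors for these ligands were then looked up. None of the 18 signaling chemokine receptors had a row under a current or an older symbol, including Cxcr4 for Cxcl12, Ccr2 for Ccl2 and Ccl7, and Cxcr2 for Cxcl1. Of the 5 atypical receptors, which bind chemokines without G protein signaling, Ackr3 was present under its older symbol Cxcr7. ACKR3 takes up CXCL12 from the surroundings. Its authors' mean level was 5.40 and its level per kb 3.78, so that Cxcl12 per kb was 28.5 times that of Ackr3, and 21.4 times with merged exons. Of 8 genes that hold or process chemokines, 7 had a row, and Dpp4, a protease that trims CXCL12, had none. The 7 ranged from 3.57 per kb for Gpc1 to 6.71 for Sdc4, both heparan sulfate carriers, against a median of 3.32 over protein coding genes. Sdc1 had 5.74, Sdc2 4.30 and Sdc3 3.81 per kb.

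Receptors through which cytokines are known to induce stromal chemokines had rows for 8 of 8 genes. Tnfrsf1a, the main TNF receptor, was highest with 6.22 per kb, and Ltbr, the lymphotoxin β receptor, followed with 6.16. The interferon-γ receptor genes Ifngr2 and Ifngr1 had 5.11 and 4.48, and Tnfrsf1b had 4.59. Il1r1, the interleukin 1 receptor, was lowest with 1.22 per kb. Tnfrsf1a was 32.1 times Il1r1 with the longest transcript, with a range from 29.2 to 71.6 over the 3 definitions.

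**Figure D4:**
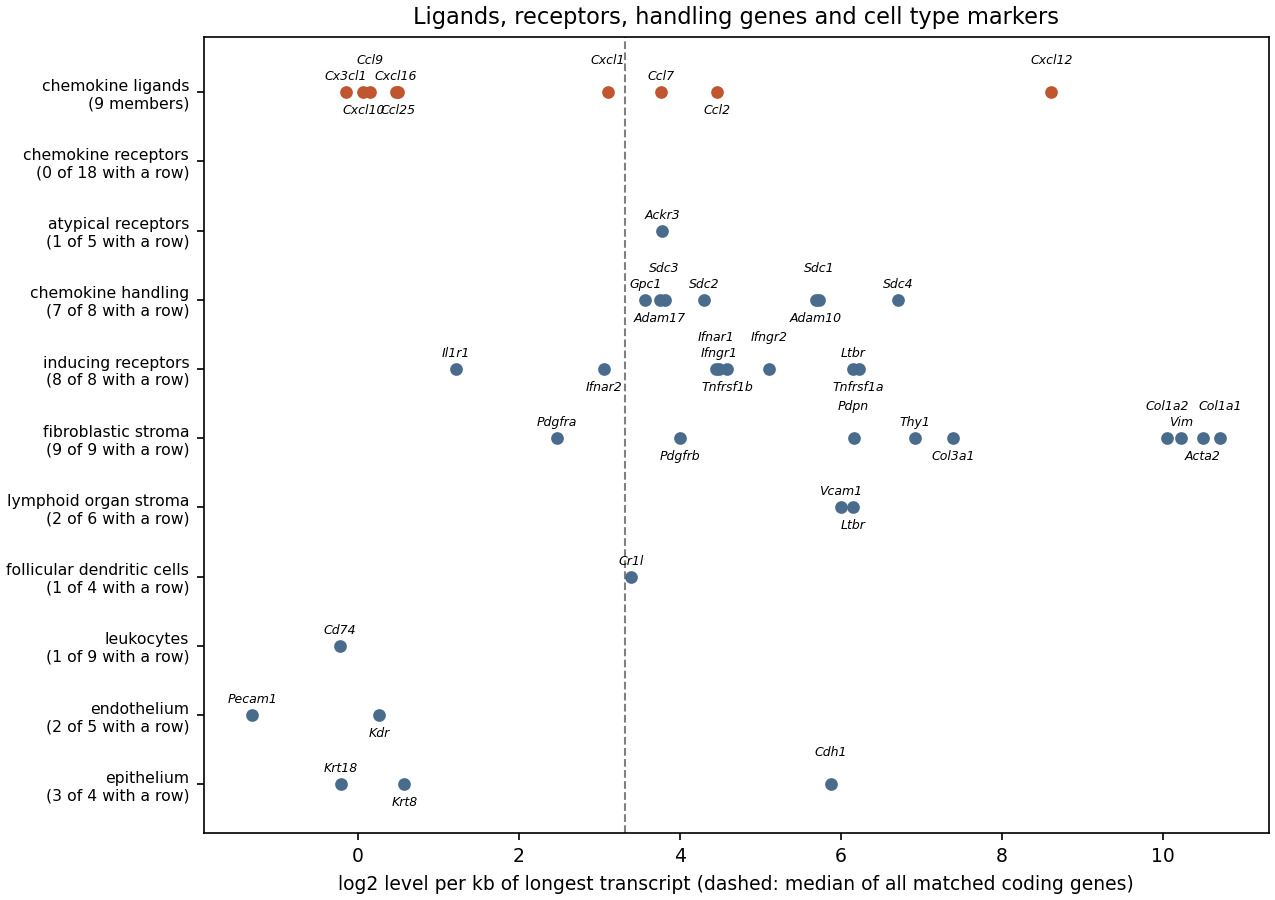
Log2 level per kb of the longest transcript for the 9 chemokine ligands (orange) and for the listed genes of receptors, handling genes, inducing receptors and cell type markers (blue), with the number of each list that had a row. The dashed line is the median of protein coding genes, 3.32. The fibroblastic markers range from 2.47 to 10.72, and Cxcl12, Ccl2, Ccl7 and Cxcl1 all lie in that range. No signaling chemokine receptor is shown because none had a row, and the leukocyte list holds a single gene at a low level.

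The labelled cell type was checked against markers. Fibroblastic markers had rows for 9 of 9 genes, with authors' mean levels from 5.24 for Pdgfra to 13.29 for Col1a1. The highest per kb were Col1a1 with 10.72, Acta2 with 10.50, Vim with 10.23, Col1a2 with 10.05 and Col3a1 with 7.40. Vcam1 at 8.03 and Ltbr at 7.23 were present among 6 genes of lymphoid organ stroma, whereas Icam1, Madcam1, Tnfsf11 and Il7 had no row. Of 4 genes listed for follicular dendritic cells, Cr2, Fcer2a and Fcgr2b had no row. The other, Cr1l, was at 5.34, at percentile 57.0 of all rows, but it is not specific to these cells. Of 9 leukocyte markers only Cd74 had a row, at 0.27, and Ptprc and Cd79a were among those with none. Endothelial Pecam1 was at 0.47 and Kdr at 2.83. The epithelial cadherin gene Cdh1 was at 8.03, although Epcam had no row and the keratin genes Krt8 and Krt18 were at 1.55 and 0.31.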

How the data were processed

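RNA-seq of 8 samples of mSSC-YFP cells (4 DMSO, 4 BMS493) was used. Per the study's methods and the tools in the labels, STAR 2.3.0e placed the reads on mm10, Rsubread counted those with a unique position on genes of Ensembl 85, and the authors applied the trimmed mean of M-values normalization. A count added before logs and a filter on low values are not given in the sources used here. The authors deposited 1 table with decimal commas, which were converted. Its log2 column, the authors' mean over all samples, was used. Its 4 other columns hold the authors' own comparison of BMS493 with DMSO (fold change, t, p and adjusted p) and were not used, so the change of each ligand is not reported here. The study's methods give an average number of sequenced clusters per sample, but the depth of each single library is not given.

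Symbols were matched to GENCODE M21 (GRCm38, the assembly of mm10), 11771 directly and 603 through a single older symbol in RefSeq. Lengths are from the same annotation. Genes named are all 9 ligands, and members of lists of receptors, handling genes, inducing receptors and markers. The rule named the 5 highest per kb of each list, and others were named after their values were seen. A marker of the leukocyte list is not reported here. Ligands and lists were chosen with earlier results of these data known, and the promoter motifs after the levels were seen. Clusters join ligand genes at most 300 kb apart. Python 3.11.15, numpy 2.4.6 and matplotlib 3.10.9 were used, and the functions were tested on simulated data. Alternatives were limits of 0 and 3 and the first quartile for a low level, other length definitions, no division by length, and another reference set for percentiles. Ratios between genes with the other lengths were added after the values were seen.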

Additional observations from a re-analysis of the deposited data

How the results depend on the processing

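No paired analysis was possible because the column used is a mean over all samples, which holds no value per sample, and leaving out replicates, another normalization and a filter were not run for the same reason. With a limit of 3 in place of 1, 5 ligands counted as low, against 21.6% of all rows, as did 5 with the first quartile of all genes. With a limit of 0, or without repeated or altered symbols, 0 did. In the order by level per kb, 3 adjacent pairs swapped without division by length, 1 with merged exons and 3 with the median coding transcript. This count does not show how far a ligand moved. With merged exons Ccl25 went from the highest of the 5 lower ligands to the lowest. With the median coding transcript Cx3cl1 went from the lowest of these 5 to the highest. Of 18 levels per kb under another length, 7 moved by at least 0.5 on the log2 scale, and 3 of 9 percentiles moved by at least 5 when protein coding genes per kb were the reference. None of the 7 handling genes with a row, nor Ackr3, the 1 chemokine receptor with a row, fell under a limit of 1, 0 or 3. Over all rows 6.80% were under 1 and 21.6% under 3, so this count does not set these genes apart. The 18 signaling receptors had no row and could not be counted. Cxcl12 per kb was 2.33 times Col3a1 with the longest transcript and 0.555 times with the median coding transcript. In the other pairs of genes given a ratio, the order was the same under the 3 length definitions. Outside these pairs it could change. With the median coding transcript Acta2 had 11.01 per kb and Col1a1 10.72, and with merged exons Adam17 had 3.07 and Gpc1 3.27. With the longest transcript these orders were the reverse. The mean pools both treatments, and the authors' comparison columns were not used, so whether a ligand's level differed between the groups is not given here.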
